A study of Mus musculus with 8 samples.

Results

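Chemokines are small secreted proteins that draw migrating cells along a gradient, interleukins are cytokines through which immune and tissue cells signal to one another, and each acts through its own receptors. The genes described here are those of the mouse whose symbol begins with Ccl, Cxcl, Ccr, Cxcr or Cx3c, or with Il followed by a digit. By this rule 130 of the 19057 named genes on the array were members, with 208 of its 45281 probes. Of these, 74 genes with 106 probes were detected, meaning that the array's own detection p-value for a probe was under 0.05 on at least 2 of the 8 arrays.

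RNA came from kidney cells of adult mice that were collected with magnetic beads for the surface protein CD31, a marker of endothelium. The mutants carried KST264, a gene trap in Crim1, on both alleles (genotype Crim1KST264/KST264), and the controls were wildtype. All mice were of the strain given as C57B6/CD1, and Crim1 encodes a transmembrane protein that binds bone morphogenetic proteins. Each genotype had 2 females, numbered 1 and 3, and 2 males, numbered 2 and 4, which gives 4 groups of 2 arrays. Whether every array came from its own animal is not stated in the labels. The p-values therefore describe the spread between samples, and that spread may be technical.

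Chemokine receptors are membrane proteins coupled to inhibitory G proteins, and one receptor often takes several ligands. Most interleukin receptors are assembled from chains that are shared between cytokines and signal through Janus kinases and STAT factors, whereas the receptors of the Il1 and Il17 families act through other adaptors and NF-kB. In kidney, endothelium displays membrane-bound Cx3cl1 and releases Cxcl12, tubule epithelium makes Cxcl1, Il15 and Il34, and resident macrophages make many CC chemokines.

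The labels were checked first. The brighter probe of Crim1 had a log2 intensity from 4.67 to 5.82 in the mutants and from 6.97 to 7.98 in the wildtypes. Xist was detected only in the females, and the Y-linked genes Eif2s3y and Kdm5d only in the males. Raw signal medians were between 83.2 and 98.5, and between 45.1% and 48.7% of all probes were detected per array. Principal component 1, with 35.1% of the variance, separated the sexes, and mutant male 2 stood at 53.8 on the second (18.4%), where the other arrays lay between -39.9 and 3.47. Endothelial markers were detected for 14 of 15 genes (all but Kdr), with a mean log2 intensity of the list from 10.56 to 12.11. Markers of other cells gave signal as well: the mean of the macrophage and dendritic list ran from 8.20 to 9.18, that of the T and NK list from 6.86 to 8.29, and that of the proximal tubule list from 12.39 to 12.95. The loop and distal tubule list, with 5 of 6 genes detected, ran from 13.56 to 14.29, and the collecting duct list from 9.41 to 10.16. In such mixed RNA, fewer cells of a type and less RNA per cell cannot be told apart, and this holds for every value that follows.

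Detection differed by role. The 74 detected members were 56.9% of all members, against 65.5% of all named genes. CC ligands were detected for 17 of 22 genes, and CXC and CX3C ligands for 9 of 13. Chemokine receptors were detected for 8 of 18 genes (Ccr6, Ccr7, Ccrl2, Cx3cr1, Cxcr3, Cxcr4, Cxcr5 and Cxcr6). Interleukin receptor chains were detected for 24 of 35 genes, the interleukins themselves for 14 of 36, and inhibitors and binding proteins for 1 of 5, Il18bp, a soluble inhibitor of Il18. The remaining detected member, Il4i1, encodes an amino acid oxidase and fits the rule by its letters alone.

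Among the ligands, Ccl1, Ccl17, Ccl20, Ccl22, Ccl26, Cxcl3, Cxcl11, Cxcl15 and Cxcl17 were not detected. The undetected receptors were Ccr1, Ccr1l1, Ccr2, Ccr3, Ccr4, Ccr8, Ccr9, Ccr10, Cxcr1 and Cxcr2, which include the monocyte receptor Ccr2 and the neutrophil receptor Cxcr2. Il1a, Il3, Il5, Il6, Il9, Il17a, Il21, Il22 and Il23a, which encode cytokines of activated lymphoid and myeloid cells, were among the 22 undetected interleukins. Of the 56 undetected members, 49 were below the detection limit on every array and 7 passed it on 1 array (Ccl17, Ccl20, Ccr3, Il1rl2, Il21r, Il22ra2 and Il23a). An array that does not detect a probe gives only an upper bound on its signal, and a probe that binds its transcript poorly is dim for that reason alone.

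Of the detected members, each represented by its probe with the highest mean, 46 were detected on all 8 arrays, 28 on 2 to 7 arrays and 8 on only 2 or 3. Those seen on few arrays were Ccl2, Ccl11, Ccl28, Cxcl13, Cxcr5, Il2, Il4 and Il10. All values below are background-corrected, quantile-normalized log2 intensities. A probe's brightness depends on the probe as well as on the transcript, so levels are not ranked between genes.

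**Figure D1:**
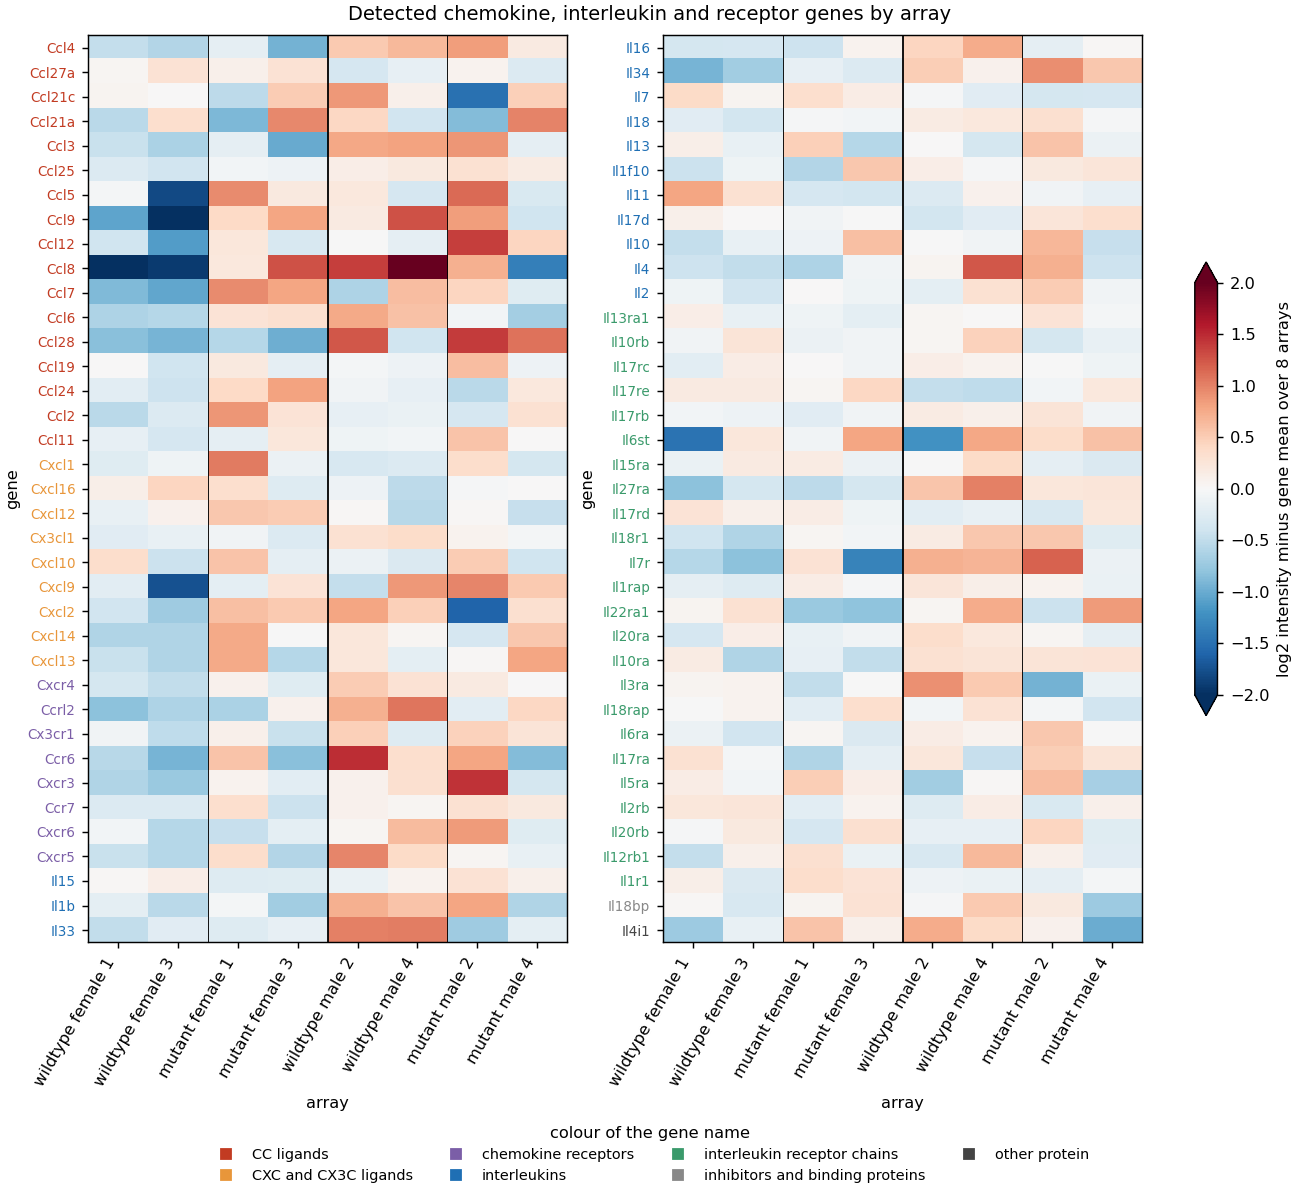
Relative log2 intensity of the 74 detected members (rows, grouped by role) on the 8 arrays (columns, grouped by genotype and sex), drawn as each array's difference from the member's mean over the 8 arrays. Red is above and blue below that mean, and colours stop at 2 in either direction. Ccl8 has the widest spread across the arrays, from 4.60 in wildtype female 1 to 9.12 in wildtype male 4.

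The 10 members whose probes had the highest mean signal were detected on every array. They are listed by the mean signal of the probe, which does not rank their transcripts. Ccl4, a chemokine of macrophages and lymphocytes, ran from 10.41 to 12.19. Cxcl1, a neutrophil attractant, ran from 10.49 to 11.88, and Il15, which sustains natural killer and memory T cells, from 10.58 to 11.13. Cxcl16, a membrane-anchored ligand of Cxcr6, lay between 10.19 and 11.14, and Cxcl12, the ligand of Cxcr4, between 10.13 and 11.24. The receptor chains Il13ra1 and Il10rb, shared by several cytokines, ran from 10.42 to 10.88 and from 9.97 to 10.78. Il1b, the main secreted cytokine of the inflammasome, spanned 9.52 to 11.02. Ccl27a, a ligand of Ccr10, spanned 9.86 to 10.49, and Cx3cl1, the ligand of Cx3cr1, 9.86 to 10.50.

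The first comparison asked whether the Crim1 mutation altered these genes, with both sexes weighted equally. In the model fitted with limma over all tested probes, 0 of the 74 members passed an adjusted p of 0.05, against 0.0401% of all genes (5 of 12476). At an unadjusted p under 0.05 there were 10 members, or 13.5%, beside 8.38% of all genes. Of these, 6 had higher means in the mutants (Ccl2, Ccl7, Ccl12, Il17d, Il17re and Il34), as did 3.93% of all genes, and 4 had lower ones (Il3ra, Il10rb, Il11 and Il33), as did 4.45%. Ccl2, detected on 0 wildtype arrays, passed the detection filter through the mutants alone, which favoured a higher mutant mean. The groups of 4 arrays did not overlap for 1 member, Il3ra, or 1.35% of members, against 3.05% of all genes in either direction; 0 members were higher in the mutants without overlap, beside 1.82% of all genes. The median difference over the members was 0.03 on the log2 scale, beside 0.02 over all genes.

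Among the CC ligands, 13 of 17 had a difference above 0 and their median was 0.32, and among the CXC and CX3C ligands 7 of 9 did, with a median of 0.30. The CC ligands above 0 include Ccl2 and Ccl11, which were detected on 0 wildtype arrays. Both passed the detection filter through the mutants alone, which favoured a sign above 0, and the CC ligand median is the value of Ccl11. The medians of the other roles lay near 0: 0.00 for the chemokine receptors, -0.02 for the interleukin receptor chains and 0.03 for the interleukins. Over all genes 54.3% of the differences were above 0. No p is given for these counts, since genes of a list are not independent of one another.

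Ccl7, an attractant of monocytes through Ccr2, measured 7.06 and 6.92 in the mutant females and 6.56 and 5.88 in the mutant males. Its wildtype values were 5.24 and 5.09 in the females and 5.51 and 6.74 in the males. The mutant females stood above every wildtype female, while wildtype male 4 was among the high arrays. The difference was 0.96 (SE 0.28, adjusted p = 0.419), and another probe of Ccl7 gave 1.30, also with no call.

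Ccl12, a monocyte attractant of mice that also binds Ccr2, read 7.85 and 7.31 in mutant females against 7.23 and 6.50 in wildtype females. In males it read 9.001 and 8.06 in the mutants against 7.61 and 7.44 in the wildtypes. Within each sex both mutants were above both wildtypes, although the groups overlapped when the sexes were pooled. The difference was 0.86 (SE 0.27, adjusted p = 0.428), and 1.02 by its other probe.

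Ccl2, the chief ligand of Ccr2, was detected on 3 mutant arrays and on no wildtype array. Its values were 6.01 and 5.39 in mutant females, 4.79 and 5.43 in mutant males, 4.59 and 4.86 in wildtype females and 4.96 and 5.00 in wildtype males. Mutant male 2 lay inside the wildtype range. The mutant mean as measured was 1.12-fold above the wildtypes, taken at the lowest detected signal of each wildtype array or the probe's own value where higher. This is not a strict lower bound, as a mutant male was also below detection. The fitted difference was 0.56 (SE 0.20, adjusted p = 0.487).

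Ccl24, an eosinophil attractant acting through Ccr3, measured 5.71 and 6.12 in mutant females, 4.77 and 5.52 in mutant males, 5.11 and 4.90 in wildtype females and 5.24 and 5.15 in wildtype males. The male groups overlapped and the female groups did not. The pooled difference was 0.43 (SE 0.19, adjusted p = 0.599), and 0.25 without mutant male 4. Ccl9, a ligand of Ccr1 in the mouse, gave 0.81 (SE 0.38, adjusted p = 0.628), with 0.50 without mutant male 2 and 0.54 without wildtype male 2, and its arrays are given with the comparison of the sexes' responses.

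Ccl2, Ccl7, Ccl12 and Ccl8 lie in the same run of genes in the genome, with Ccl11 between Ccl7 and Ccl12. In the RefSeq gene order of GRCm38.p6, the coding genes Ccl2, Ccl7, Ccl11, Ccl12, Ccl8 and Ccl1 follow one another on chromosome 11, and Ccl5, Ccl9, Ccl6, Ccl3 and Ccl4 form another run on the same chromosome. In the first run the pooled genotype difference was above 0 for every detected gene, at 0.56, 0.96, 0.32, 0.86 and 0.42 from Ccl2 to Ccl8. Over all genes 54.3% of the differences were above 0. The value of Ccl8 (SE 0.48) averages opposite signs, 2.91 in females and -2.08 in males, and its wildtype females were below detection. Ccl2 and Ccl11 were detected on 3 and 2 mutant arrays and on 0 wildtype arrays. They passed the detection filter through the mutants alone, which favoured a sign above 0, and their sizes are not exact. In the other run, Ccl5 had 0.98 and Ccl9 0.81, whereas Ccl6, Ccl3 and Ccl4 had -0.07, -0.24 and -0.06. None of the 10 passed the adjusted threshold.

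Il33, an alarmin kept in the nuclei of endothelial and other barrier cells, had the smallest p of all members. Its log2 intensity was 8.34 and 8.45 in mutant females and 7.90 and 8.41 in mutant males. In wildtypes it was 8.12 and 8.38 in females and 9.62 and 9.64 in males. The wildtype males alone stood apart from the other 6 arrays. The pooled difference was -0.66 (SE 0.14, unadjusted p = 0.00252, adjusted p = 0.352).

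Il3ra, the ligand-binding chain of the Il3 receptor, measured 5.61 and 6.10 in mutant females and 5.16 and 5.98 in mutant males. The wildtype values were 6.17 and 6.18 in females and 7.01 and 6.63 in males. Every mutant array was below every wildtype array, the only such member in this direction, where 1.23% of all genes were as well separated. The difference was -0.78 (SE 0.22, adjusted p = 0.394), and Il3 itself was not detected.

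Il34, a ligand of the macrophage receptor Csf1r, read 7.38 and 7.27 in mutant females against 6.61 and 6.84 in wildtype females, and 8.47 and 8.08 in mutant males against 8.04 and 7.63 in wildtype males. Mutants were above wildtypes within each sex, and males were above females. The genotype difference was 0.52 (SE 0.15, adjusted p = 0.413). Il11, a cytokine of the Il6 family that signals through Il6st, measured 5.14 and 5.10 in mutant females, 5.40 and 5.31 in mutant males, 6.26 and 5.77 in wildtype females and 5.20 and 5.55 in wildtype males. The wildtype females were the highest 2 arrays. Its difference was -0.46 (SE 0.15, adjusted p = 0.447).

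Il10rb, the second chain shared by the receptors of Il10 and its relatives, ranged from 9.97 to 10.25 in mutants and from 10.24 to 10.78 in wildtypes, so the groups met at their edges. The difference was -0.34 (SE 0.14, adjusted p = 0.563), and -0.66 by its dimmer probe. Il17re, a receptor chain of the Il17 family, ranged from 9.50 to 9.98 in mutants and from 9.05 to 9.74 in wildtypes, with a difference of 0.31 (SE 0.13, adjusted p = 0.565). Il17d, a cytokine of the same family, ranged from 5.22 to 5.63 in mutants and from 4.92 to 5.40 in wildtypes, with a difference of 0.25 (SE 0.10, adjusted p = 0.563).

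**Figure D2:**
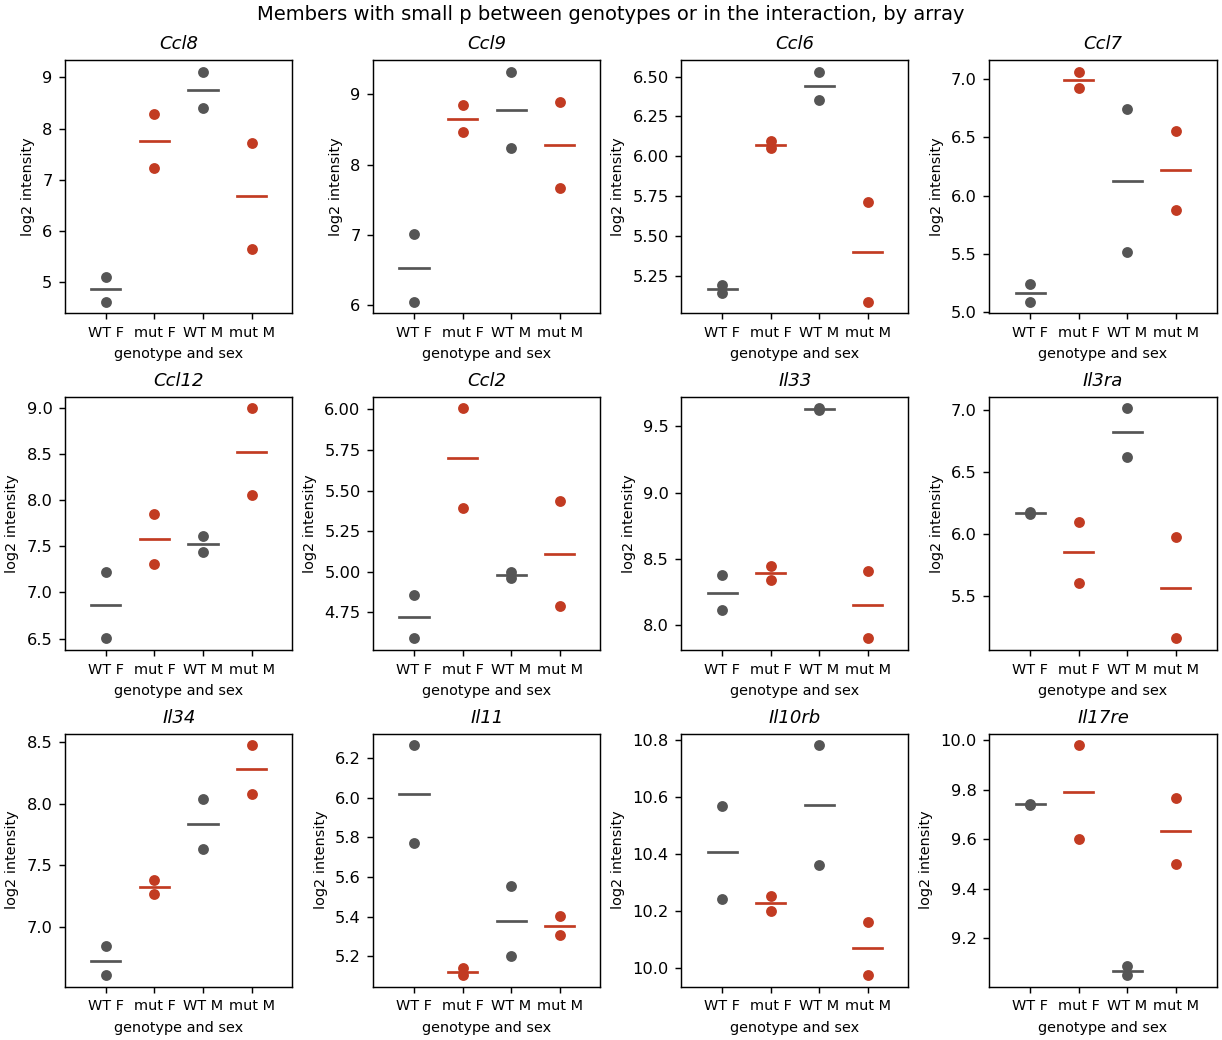
Log2 intensity (vertical axis) of 12 members with a small p between genotypes or in the interaction, in wildtype (WT) and mutant (mut) females (F) and males (M). Each point is 1 array and each line the mean of 2. Ccl8, Ccl9, Ccl6 and Ccl7 are higher in mutant than in wildtype females, and Ccl8 and Ccl6 are lower in mutant than in wildtype males.

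Marker genes of several cell classes differed beside these values, with 0 called between genotypes in any of the 12 lists. The fibroblast list had the widest difference: its 4 detected genes (Pdgfra, Dcn, Fbln1 and Serpinf1, with Lum, Col1a1, Col1a2 and Col3a1 undetected) were all above 0 with an unadjusted p under 0.05, with a median of 1.07 overall and 1.499 in females. The list's mean ran from 7.90 to 8.65 in mutants and from 7.03 to 7.68 in wildtypes, without overlap. All 14 detected endothelial markers had a genotype difference below 0, with a median of -0.62, and the list's mean was 10.72 and 10.94 in mutant females, 10.96 and 11.15 in wildtype females, 10.56 and 11.42 in mutant males and 11.81 and 12.11 in wildtype males. Il33 ran in the order of this list over the 4 male arrays and not over the 4 female arrays, where its difference of 0.15 had the other sign from the list's median of -0.24. The macrophage and dendritic list, detected for 12 of 15 genes with Itgam, Itgax and Flt3 undetected, had a mean of 8.86 and 8.75 in mutant females, 8.28 and 8.20 in wildtype females, 9.13 and 8.73 in mutant males and 9.18 and 8.64 in wildtype males. Its mutant and wildtype arrays were apart in females and overlapped in males. All 5 collecting duct genes and 6 of 8 proximal tubule genes had a difference above 0, with medians of 0.35 and 0.26 and an unadjusted p under 0.05 for 1 and 3 of them. The part of these cell classes in the values of the members was not tested.

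Taken by sex, 0 members passed in females and 0 in males, where 0% of all genes passed in either sex. In females 9 members had an unadjusted p under 0.05, or 12.2%, beside 3.86% of all genes. The 8 with higher means in the mutants (2.15% of all genes) were 6 CC ligands (Ccl2, Ccl6, Ccl7, Ccl8, Ccl9 and Ccl24) with Cxcl14 and Il34. The 1 with a lower mean (1.71% of all genes) was Il11. Of the 8, Ccl2, Ccl6, Ccl8, Ccl24 and Cxcl14 were below detection in both wildtype females. Their female differences are bounds, at least 1.38, 1.78, 5.73, 1.60 and 1.80-fold in that order. Ccl2 passed the detection filter through the mutants alone, which favoured its place among the 8. The 2 mutant females lay above the 2 wildtype females for 24 of the 74 members, or 32.4%, where 17% of all genes did, and below them for 7, or 9.46%, where 16.1% did. The median difference in females was 0.19 over the members and 0.00 over all genes.

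In males 12 members, or 16.2%, had an unadjusted p under 0.05, beside 11.1% of all genes, with 3 higher in the mutants (Ccl12, Il17d and Il17re), beside 5.19% of all genes, and 9 lower (Ccl6, Ccl8, Ccrl2, Il3ra, Il4i1, Il10rb, Il16, Il27ra and Il33), beside 5.86%. Mutant males lay above wildtype males for 10 members, or 13.5% (22.6% of all genes), and below them for 18, or 24.3% (17.7% of all genes). Their median was -0.03, beside 0.03 over all genes.

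The interaction tests whether the genotype difference itself differed between the sexes. For 0 members did it pass an adjusted p of 0.05, as for 0% of all genes, and the smallest adjusted p among members was 0.594. At an unadjusted p under 0.05 there were 16 members, or 21.6%, beside 6.78% of all genes. In 12 of these the male difference lay below the female one (3.46% of all genes), and in 4 above it (Il11, Il15, Il17d and Il17ra; 3.32% of all genes). The median interaction was -0.32 over the members and 0.02 over all genes. Of the 74 members, 51 were below 0 and 31.1% above it, beside 52.2% of all genes above 0. Marker lists leaned the same way, with medians of -1.37 for neutrophil, -0.92 for fibroblast, -0.86 for endothelial and -0.57 for macrophage and dendritic markers. Only the proximal tubule, collecting duct and mural and mesangial lists had a median above 0 (0.26, 0.21 and 0.62). The part of these cells in the interaction was not tested.

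Ccl8, which in mice attracts cells that carry Ccr8, had the widest interaction. Its log2 intensity was 7.23 and 8.29 in mutant females and 4.60 and 5.09 in wildtype females, and it was 7.72 and 5.64 in mutant males and 8.40 and 9.12 in wildtype males. The wildtype females and mutant male 4 were low and the other 5 arrays high. It was not detected in either wildtype female, so the female difference of 2.91 (SE 0.68, adjusted p = 0.968) is given as at least 5.73-fold, and the male difference was -2.08 (SE 0.68, adjusted p = 0.334), or 4.22-fold. The fitted interaction was -4.99 (SE 0.96, unadjusted p = 0.00121, adjusted p = 0.594). Since it rests on signals below detection in the wildtype females, its size is not exact, and in the authors' processed values it was -1.86.

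Ccl6, a macrophage chemokine of rodents that binds Ccr1, read 6.05 and 6.09 in mutant females, 5.15 and 5.20 in wildtype females, 5.71 and 5.09 in mutant males and 6.53 and 6.35 in wildtype males. Its groups did not overlap in either sex and ran in opposite directions. Wildtype females did not reach detection, so the female difference of 0.90 (SE 0.22) stands for at least 1.78-fold, and the male difference was -1.04 (SE 0.22). The fitted interaction was -1.94 (SE 0.31, unadjusted p = 0.000406, adjusted p = 0.594), which carries the same limit, and -0.40 in the authors' processed values.

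Ccl9, its neighbour on chromosome 11 and also a ligand of Ccr1, measured 8.46 and 8.84 in mutant females, 7.01 and 6.04 in wildtype females, 8.89 and 7.66 in mutant males and 8.24 and 9.33 in wildtype males. The female groups were apart and the male groups overlapped. The female difference was 2.13 (SE 0.53), or 4.38-fold, the male difference -0.51 and the interaction -2.64 (SE 0.76, adjusted p = 0.656). Il33 had a female difference of 0.15, a male difference of -1.47 (SE 0.20, adjusted p = 0.179), which is 2.77-fold, and an interaction of -1.62 (SE 0.29, unadjusted p = 0.000799, adjusted p = 0.594).

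Pooled over all genes, 2.59% had mutant females above wildtype females and mutant males below wildtype males with no overlap in either sex. Among members there were 6, or 8.11%: Ccl6, Ccl8, the neutrophil attractant Cxcl2, the Cxcl12 receptor Cxcr4, the shared Il1-family co-receptor Il1rap, and Il4i1. The opposite crossing held for 3 members, or 4.05% (Il15, Il17d and Il17ra), beside 3.43% of all genes. Cxcl2 had an interaction of -2.38, and -0.78 by its second probe, whose pooled genotype difference of 0.45 had the other sign from that of the brighter probe (-0.08).

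**Figure D3:**
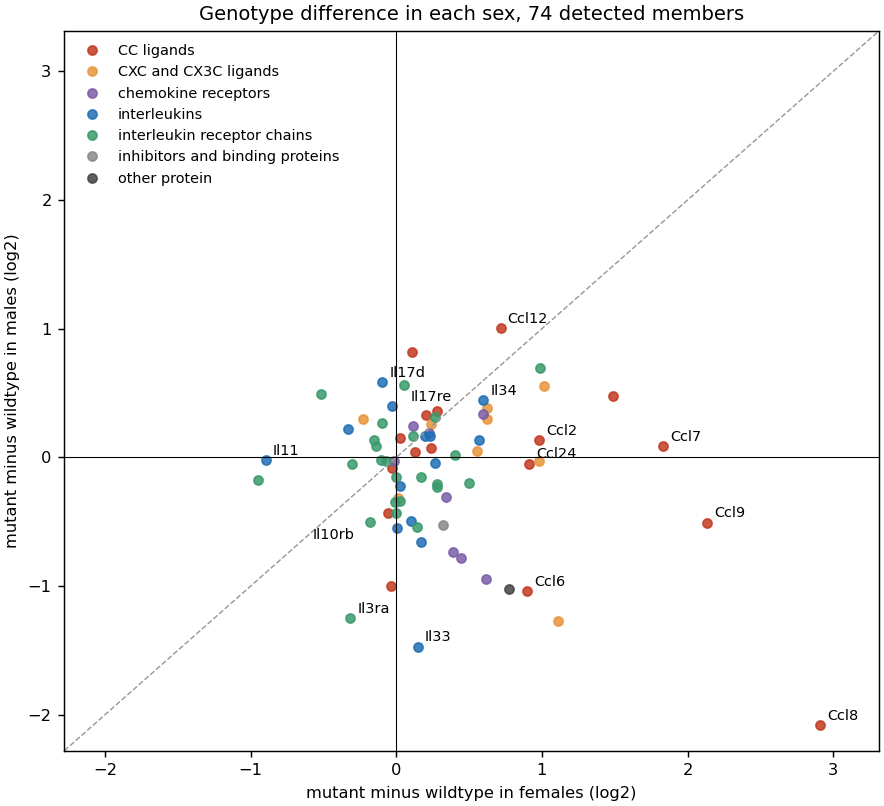
Mutant minus wildtype log2 difference in females (horizontal axis) against that in males (vertical axis) for the 74 detected members, coloured by role, each point from 2 arrays against 2 in each sex. The dashed line marks equal differences. Ccl8 lies at a fitted 2.91 in females, where the wildtypes were not detected, and -2.08 in males, Ccl9 at 2.13 and -0.51, and Il33 at 0.15 and -1.47.

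The sequences before the transcription starts of these genes are shown because neighbours with the same roles had different values: Ccl12 and Ccl8, which lie next to one another, and Ccl9 and Ccl6, which do too, with Il33 for comparison. They are the 250 bases upstream of RefSeq starts on GRCm38.p6, read along the gene's strand. Capitals mark matches on either strand to a TATA box (TATAAA), an AP-1 site (TGANTCA), an interferon-stimulated element (GAAA and GAAA with any 2 bases between) or the NF-kB consensus. Positions are counted in bases before the start.
Ccl12 (chr11:82101595-82101844, plus strand): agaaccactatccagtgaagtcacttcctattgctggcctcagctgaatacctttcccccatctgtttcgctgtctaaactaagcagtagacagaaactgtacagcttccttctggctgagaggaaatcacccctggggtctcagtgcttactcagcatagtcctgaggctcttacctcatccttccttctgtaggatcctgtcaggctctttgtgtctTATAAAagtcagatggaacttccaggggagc
Ccl8 (chr11:82114935-82115184, plus strand): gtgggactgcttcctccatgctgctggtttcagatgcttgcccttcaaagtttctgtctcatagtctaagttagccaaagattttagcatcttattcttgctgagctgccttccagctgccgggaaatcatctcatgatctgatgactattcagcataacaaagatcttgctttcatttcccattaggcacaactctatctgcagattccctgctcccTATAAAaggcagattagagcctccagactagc
Ccl9 (chr11:83578637-83578886, minus strand): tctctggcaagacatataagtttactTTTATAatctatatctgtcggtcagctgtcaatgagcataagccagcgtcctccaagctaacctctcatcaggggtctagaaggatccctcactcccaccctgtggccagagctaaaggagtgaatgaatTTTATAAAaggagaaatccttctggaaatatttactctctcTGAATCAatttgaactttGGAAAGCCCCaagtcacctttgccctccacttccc
Ccl6 (chr11:83593088-83593337, minus strand): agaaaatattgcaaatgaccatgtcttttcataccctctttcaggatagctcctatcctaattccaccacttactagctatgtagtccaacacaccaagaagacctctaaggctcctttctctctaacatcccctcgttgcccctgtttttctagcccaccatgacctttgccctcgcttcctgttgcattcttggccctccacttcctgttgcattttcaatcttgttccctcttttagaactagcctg
Il33, upstream start (chr19:29924863-29925112, plus strand): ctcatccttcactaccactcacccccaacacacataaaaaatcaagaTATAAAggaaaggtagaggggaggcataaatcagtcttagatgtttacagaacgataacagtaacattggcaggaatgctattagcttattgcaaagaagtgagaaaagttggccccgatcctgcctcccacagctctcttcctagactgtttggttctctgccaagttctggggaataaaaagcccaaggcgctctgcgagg
Il33, downstream start (chr19:29945540-29945789, plus strand): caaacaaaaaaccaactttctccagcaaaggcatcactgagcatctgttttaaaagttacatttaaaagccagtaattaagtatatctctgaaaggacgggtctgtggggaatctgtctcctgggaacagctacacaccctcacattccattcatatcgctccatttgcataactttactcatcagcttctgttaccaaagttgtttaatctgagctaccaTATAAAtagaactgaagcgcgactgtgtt

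Ccl12 and Ccl8 each held 1 TATA box, which began 31 and 32 bases before the start, and no other match. Ccl9 held 1 NF-kB match at 35, 1 AP-1 match at 53 and 3 TATA matches, of which a pair on opposite strands overlap. The window of Ccl6 held none of these letters. The upstream start of Il33 had a TATA match at 203 and the downstream start one at 29. Of the 69 promoters found for 54 of the detected members, 20.3% held a TATA match, 14.5% an AP-1 match, 13.04% an NF-kB match and 5.80% an interferon-stimulated element. Over all 32851 promoters in the table the shares were 12.4%, 6.75%, 7.25% and 2.98%. Such matches describe the letters in a window and do not show that a factor binds there.

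The third comparison set males against females, with both genotypes weighted equally. Each sample number lies in 1 sex, so the sexes differ in their numbers too, and the printed test treats same-numbered arrays as separate samples. Here 3 of the 74 members, or 4.05%, passed an adjusted p of 0.05, beside 3.73% of all genes (465 of 12476), a share near that of all genes. All 3, Il34, Il27ra and Ccl4, were higher in males, where 1.52% of all genes were called higher and 2.2% lower. At an unadjusted p under 0.05 there were 23 members, or 31.1%, beside 21.5% of all genes, with 19 higher in males (9.97% of all genes) and 4 lower (Ccl27a, Cxcl12, Il7 and Il17re; 11.6% of all genes). The sexes did not overlap for 8 members higher in males, or 10.8% (5.53% of all genes), and for 1 lower, Il7, or 1.35% (8.47% of all genes). Both counts of members higher in males, 19 and 8, include Ccl28, which was detected in 0 females. It passed the detection filter through the males alone, which favoured a higher male mean. The median was 0.22 over the members and -0.02 over all genes.

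Il34 was 8.47 and 8.08 in mutant males and 8.04 and 7.63 in wildtype males, against 7.38, 7.27, 6.61 and 6.84 in the females of the same order. The lowest male stood above the highest female. The males averaged 8.06 ± 0.34 and the females 7.03 ± 0.36 (SD over arrays of both genotypes, n = 4 each). The difference was 1.03 (SE 0.15), or 2.04-fold, with an adjusted p of 0.0196. In the authors' processed values, which compress dim probes, it was 0.49 (adjusted p = 0.0224).

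Il27ra, the specific chain of the Il27 receptor, which pairs with Il6st, measured 7.41 and 7.43 in mutant males, 7.74 and 8.18 in wildtype males, 6.66 and 6.82 in mutant females and 6.36 and 6.83 in wildtype females. Again all males were above all females. The difference was 1.02 (SE 0.16), or 2.03-fold, with an adjusted p of 0.0238, and 0.43 in the authors' processed values (adjusted p = 0.0247). A dimmer probe of Il27ra gave 0.39 and did not pass (adjusted p = 0.535), and its ligand chain Il27 was not detected.

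Ccl4 read 12.19 and 11.54 in mutant males, 11.88 and 12.01 in wildtype males, 11.18 and 10.41 in mutant females and 10.89 and 10.77 in wildtype females, again without overlap. The difference was 1.10 (SE 0.21), or 2.14-fold, with an adjusted p of 0.0473, and the other probe gave 1.09 (adjusted p = 0.0325). The brighter probe lost the call with the sample number as random (adjusted p = 0.0599) and with no filter on dim probes (adjusted p = 0.0768).

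The calls depended on which arrays were kept. That of Ccl4 held without mutant female 1 (adjusted p = 0.0483) or mutant male 4 (0.0444) and was lost when any one of the other 6 arrays was left out, with adjusted p from 0.0735 without mutant male 2 to 0.145 without wildtype male 4. That of Il27ra held without mutant male 2, wildtype male 2 or wildtype female 3 and was lost without each of the other 5, up to an adjusted p of 0.0861 without mutant female 1. That of Il34 held without mutant male 2, mutant male 4 or wildtype male 4 and was lost without each of the other 5, up to 0.0855 without wildtype female 1. The differences themselves stayed between 0.90 and 1.29 for Ccl4, 0.90 and 1.14 for Il27ra, and 0.93 and 1.13 for Il34.

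The next members in order of p did not pass. Ccl28, a mucosal chemokine that binds Ccr10, was not detected in any female and read 6.84, 6.54, 6.69 and 5.06 in the males. The male mean as measured was 2.08-fold above the females, taken at their lowest detected signal. This is not a strict lower bound, as a wildtype male was also below detection. The fitted difference was 1.67 (SE 0.34, adjusted p = 0.0510). Ccl28 passed the detection filter through the males alone, which favoured a higher male mean, and the fitted difference is not exact. Wildtype male 4 was near the female values. Ccrl2, an atypical receptor that binds chemerin without signalling, ran from 8.44 to 9.71 in males and from 7.83 to 8.72 in females, a difference of 0.99 (SE 0.22, adjusted p = 0.0625).

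Ccl3, a relative and neighbour of Ccl4 that binds Ccr1, ran from 8.59 to 9.66 in males and from 7.76 to 8.59 in females, with its lowest male level with its highest female to 2 decimals, and a difference of 1.14 (SE 0.27, adjusted p = 0.0804). Ccl25, a ligand of Ccr9, ran from 8.79 to 8.96 in males and from 8.28 to 8.60 in females, a difference of 0.40 (SE 0.10, adjusted p = 0.0900), but its dimmer probes gave 0.04 and -0.04. Il33 had a difference of 0.57 (SE 0.14, adjusted p = 0.0914), with the wildtype males high and the mutant males at the level of the females.

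By role, all 8 detected chemokine receptors had a sex difference above 0, with a median of 0.63 and none called. The CC ligands had a median of 0.30 (13 of 17 above 0), the interleukins 0.28 (11 of 14) and the receptor chains 0.15 (16 of 24), while the CXC and CX3C ligands had -0.02 (4 of 9). Marker lists differed between the sexes too. Of the endothelial genes 13 of 14 were above 0 and 8 had an unadjusted p under 0.05 (median 0.58). The proximal tubule list had a median of -0.47, and 5 of its 8 genes were lower at that p and 1 called in each direction. Among leukocyte markers, the T and NK list, detected for 9 of 11 genes with Cd8a and Gzmb undetected, had a mean from 7.13 to 8.29 in males and from 6.86 to 7.46 in females (median difference 0.87), and the macrophage and dendritic list from 8.64 to 9.18 and from 8.20 to 8.86 (median 0.38). Ptprc, the pan-leukocyte marker of that list, was called higher in males by 0.73 (adjusted p = 0.0439). The part of these cells in the sex differences was not tested.

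**Figure D4:**
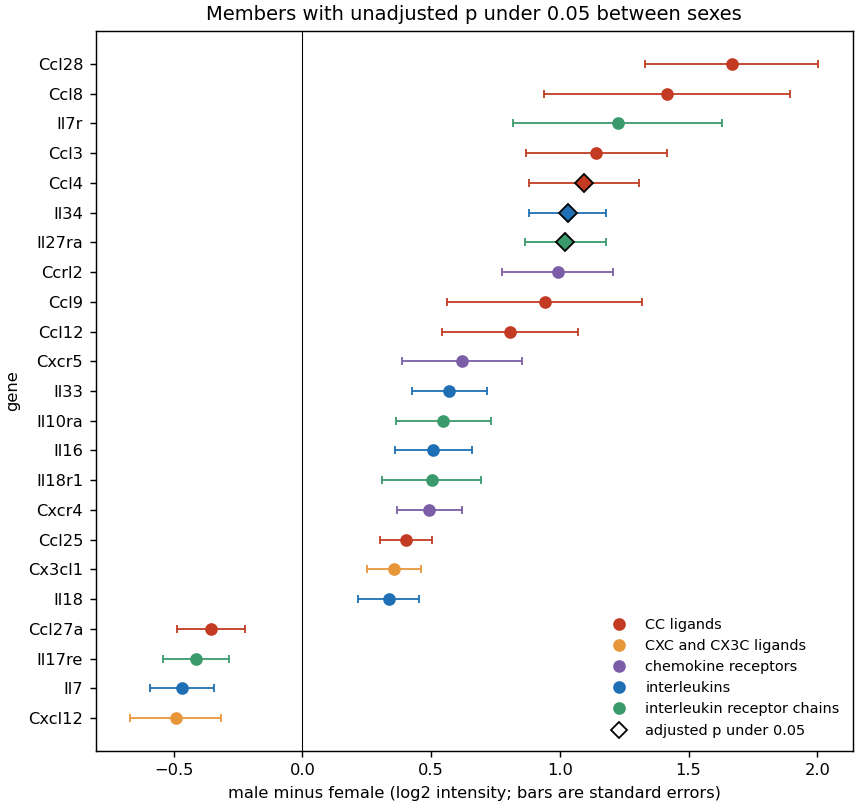
Male minus female log2 difference (horizontal axis) with its standard error for the 23 members with an unadjusted p under 0.05, ordered by size and coloured by role. Diamonds mark the 3 members with an adjusted p under 0.05 (Il34, Il27ra and Ccl4), and the 4 members below 0 are Ccl27a, Cxcl12, Il7 and Il17re.

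Ligands and receptors that pair with one another can be set side by side. Cxcl12 had a genotype difference of 0.30 and a sex difference of -0.49, and its receptor Cxcr4 0.02 and 0.49. Cx3cl1 had -0.15 and 0.36, and Cx3cr1, a receptor of resident macrophages, 0.18 and 0.46. Cxcl16 had 0.03 and -0.32, and Cxcr6, carried by T and NK cells, -0.02 and 0.64. In these 3 pairs no member was called in either comparison.

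The interferon-induced ligands Cxcl9 and Cxcl10 had genotype differences of 0.78 (SE 0.41) and 0.25 (SE 0.28), and their receptor Cxcr3 0.47 (SE 0.36). Ccl19 had 0.27 and its receptor Ccr7, which guides lymphocytes and dendritic cells to lymph nodes, 0.21. Ccl21a and Ccl21c, the other ligands of Ccr7, are near-identical copies whose probes may bind either transcript, so their values of 0.09 and -0.52, with standard errors of 0.55 and 0.45, are uncertain. Il7, a survival factor of lymphocytes, had a sex difference of -0.47 and its receptor chain Il7r one of 1.23, with adjusted p of 0.102 and 0.160. Il15 had -0.06 between genotypes and its receptor chain Il15ra -0.21.

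Partners outside the symbol rule showed no genotype call either. Of 34 such genes on the array (other ligands, their receptors and shared chains), 28 were detected, with a median genotype difference of -0.03 and 0 called in any of the 5 contrasts; 1 had an unadjusted p under 0.05 with a higher mean in the mutants and 3 with a lower one. Ifngr2, a chain of the interferon gamma receptor, had the smallest p of them at -0.72 (SE 0.12, adjusted p = 0.330), with mutants from 8.57 to 8.93 and wildtypes from 8.99 to 9.96. Csf1r, which Il34 shares with Csf1, had -0.02. The platelet chemokine Pf4 had 0.90 in females and -0.66 in males, an interaction of -1.56 (SE 0.24, adjusted p = 0.594).

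Of 33 genes for cytokine signal transduction on the array (Janus kinases, STATs, their suppressors, adaptors, NF-kB subunits and G-protein regulators), 31 were detected, with a median genotype difference of -0.04 and 0 called in any of the 5 contrasts. At an unadjusted p under 0.05, 0 had higher and 2 had lower means in the mutants, Stat2 at -0.69 (adjusted p = 0.413) and Tyk2 at -0.25 (adjusted p = 0.563). Stat2 carries type I interferon signals together with the kinase Tyk2.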

How the data were processed

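Total RNA of CD31-sorted kidney cells was hybridised to 8 one-colour Illumina arrays, 1 for each sample. The deposited table gives, per the file headers, an intensity and a detection p-value for each of 45281 probes; the intensities are on a linear scale and not normalized. The authors' deposited processed values, on a log2-like scale that compresses dim probes, were an alternative. How they were made was not given in the sources used here. All columns were tied to a sample (0 were not).

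Background correction used normexp through the detection p-values (offset 16), followed by quantile normalization and log2 (neqc, limma 3.58.1, R 4.3.3). A probe with detection p under 0.05 on at least 2 arrays was tested, which left 23841 probes of 12476 named genes. In the platform annotation 34885 probes carried 1 symbol, 18 several and 10378 none. The tested probe of highest mean stood for its gene. Means of the 4 groups were fitted with limma (lmFit, eBayes; 4 residual and 3.05 prior degrees of freedom), and the contrasts were tested two-sided with Benjamini-Hochberg adjustment over all tested probes, at a threshold of 0.05. Where a probe was not detected on any array of the dimmer group, the fold is printed as a lower bound, and the fitted log2 difference beside it is not exact. The bound is not strict where an array of the brighter group was also below detection, as for Ccl2 between genotypes and Ccl28 between sexes. Arrays have no read depth, and their number limits the precision.

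Values on every array were given for members that passed any contrast, the 12 with the smallest p between genotypes, the 8 between sexes, the 4 in the interaction and the 10 brightest. The members and all lists were chosen with earlier results of these data known. The printed fits have no pair term. A fit with the sample number as a block was an alternative, since the design text names 4 pairs and the deviations of same-numbered samples correlated at 0.100 (numbers 1 and 3) and 0.269 (numbers 2 and 4), just above the limit of 0.1 for 1 and 3. Promoter sequences, names and gene order came from RefSeq tables of GRCm38.p6. Python 3.11.15 with pandas 2.3.3 and matplotlib 3.10.9 made the tables and figures.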

Additional observations from a re-analysis of the deposited data

Results flagged for a closer look

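Among 28 named genes, each group of 4 arrays of one genotype or one sex was searched for an array far from the other 3, by Dixon's test. Of 112 groups, 7 held such an array, a share near the 1 in 20 that chance flags. Each array lies in a genotype group and in a sex group, so the groups are not separate tests. Cxcl1 stood at 11.88 in mutant female 1 (other females 10.60 to 10.76) and at 11.19 in mutant male 2 (other males 10.49 to 10.56), so both of its high arrays were mutants and the other 2 mutants were not high. Mutant male 4 was low among the males for Ccl3, at 8.59 (others 9.54 to 9.66), and for Il1b, at 9.62 (others 10.80 to 11.02). Ccl28 was at 5.06 in wildtype male 4, against 6.54 to 6.84 in the other males. Il3ra was at 5.61 in mutant female 1, against 6.10 to 6.18 in the other females, and Il10rb at 10.57 in wildtype female 3, against 10.20 to 10.25.

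For 9 members the mutants lay above the wildtypes in 1 sex and below them in the other, with no overlap in either. Higher mutant females with lower mutant males held for 8.11% of members and 2.59% of all genes. The opposite held for 4.05% of members and 3.43% of all genes, which are near one another. The interaction term of limma tested each, and none passed. In the direction of higher mutant females and lower mutant males, the male minus the female genotype difference was -4.99 for Ccl8 and -1.94 for Ccl6 (adjusted p = 0.594 for both; neither size is exact, as the wildtype females were below detection), -2.38 for Cxcl2 and -1.80 for Il4i1 (adjusted p = 0.656 for both), -0.65 for Cxcr4 (adjusted p = 0.705) and -0.49 for Il1rap (adjusted p = 0.737). In the opposite direction it was 0.55 for Il15 (adjusted p = 0.706), 0.68 for Il17d (adjusted p = 0.656) and 1.01 for Il17ra (adjusted p = 0.705). Each sex has 2 arrays per genotype.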

How the results depend on the processing

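The count of called members was 0 for the genotype difference, for females and for the interaction under every alternative run, the replicate block included (0 members), which changed no call. For males it was 0 except with a trended, robust error model, where it was 1 (Il33, -1.47, adjusted p = 0.0490). Between the sexes the 3 calls became 7 with the authors' processed values, 7 with no background correction, 5 with an offset of 50, 6 with the trended, robust model and 2, without Ccl4, under a random block for the sample number or with no filter, and ranged from 0 to 5 when 1 array was left out; the cause was not tested. No fixed replicate block could be fitted for the sexes, since each number lies in 1 sex. Detection on all 8 arrays left 47 of the 74 members by any probe. Of 24 named differences, none changed sign in 192 values with 1 array left out or in 215 others. Many of the 215 could not change sign, since the block, filter, sex-term and error-model settings left the fitted difference itself unchanged. The 24 were also picked for a small p in these data, which favours a stable sign. In the authors' processed values 16 of the 24 were over 1.5 times smaller, among them Il34 and Il27ra between the sexes, both still called, and Ccl8 in the interaction at -1.86. Each group had 2 arrays, and 28 of the 74 members were below detection on at least 1 array by their brightest probe.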
